A study of Mus musculus with 8 samples.

Results

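Imprinted growth genes are genes of fetal growth that are read mainly from the allele of a single parent. The 10 described here are Igf2, H19, Igf2r, Grb10, Plagl1, Cdkn1c, Peg3, Mest, Dlk1 and Meg3. They were chosen by name as rows of the deposited gene table, and make up 10 of its 24539 genes. All 10 were found and all 10 passed the filter on low counts. RNA sequencing was done on nephron progenitors, the kidney cells from which nephrons are built, sorted from mouse kidneys at E18.5. Every group carried Six2GFPcre, a transgene that makes a fusion of GFP and Cre in cells expressing Six2, so the sort and the recombination rested on the same transgene. The KO-labelled group was Smo c/c, with 2 conditional alleles of Smo, the transmembrane protein through which Hedgehog ligands act. The Het-labelled group was Smo c/+, and the WT-labelled group was Smo +/+. The SmoM2-labelled group was Smo +/+ with a Rosa26 SmoM2/+ allele, which yields an active form of Smo. Each group had 2 libraries, and the labels do not say whether these came from separate or pooled embryos, so p-values measure only the spread between these libraries.

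Imprinted growth genes are often grouped by the direction in which they act on fetal size. In the mouse, paternally expressed genes such as Igf2, Peg3, Mest, Plagl1 and Dlk1 mostly promote growth or tissue expansion, and maternally expressed genes such as Igf2r, Grb10, Cdkn1c and the noncoding H19 mostly restrain it. Several sit in pairs whose members are controlled by a shared, differentially methylated DNA element, as Igf2 with H19 and Dlk1 with Meg3. In the fetal kidney Igf2 is abundant in mesenchyme, and Cdkn1c, a cyclin-dependent kinase inhibitor, is known from maturing podocytes and stroma. The reads carry no information on parental origin here, so each value is the sum over both alleles.

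Smo itself was measured first, since it checks the labels. Its level was 13.1 and 11.1 CPM (counts scaled per 1e6 of the effective library size) in the KO-labelled libraries, 14.4 and 23.9 CPM in Het-labelled, 363 and 375 CPM in WT-labelled, and 605 and 629 CPM in SmoM2-labelled libraries. The Het-labelled mean was 0.0520 of the WT-labelled mean, close to the KO-labelled libraries although the label gives 1 intact allele, so groups are named by their labels throughout. Listed counts per library ran from 4422305 to 10305398, and every KO- and Het-labelled library held fewer counts than every WT- and SmoM2-labelled library. Summed levels of 12 nephron progenitor markers were 6364 to 7197 CPM in KO-labelled, 7654 to 8047 CPM in Het-labelled, 5212 to 5438 CPM in WT-labelled and 5119 to 5135 CPM in SmoM2-labelled libraries. Transcripts of 12 immediate early and stress genes summed to 4874 to 6769, 8929 to 9251, 3621 to 3841 and 4129 to 5782 CPM in the same order of groups. By Xist and Y-linked counts both KO-labelled libraries were male, both Het-labelled libraries were female, and the other groups had a male replicate 1 and a female replicate 2. In sorted but bulk RNA, fewer cells of a type and less RNA per cell cannot be told apart.

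The growth genes covered a wide range of abundance. By deposited RPKM, which scales reads by gene length and by library total, H19 averaged 1118 over the 8 libraries and ranked 34 of 24539 genes. Mest followed at 443 RPKM, Igf2 at 304 RPKM, Grb10 at 187 RPKM, Cdkn1c at 115 RPKM and Peg3 at 74.1 RPKM. Igf2r averaged 21.5 RPKM. The lowest 3 were Dlk1 at 3.67 RPKM, Plagl1 at 2.61 RPKM and Meg3 at 1.67 RPKM, with ranks of 9242, 10074 and 10925. H19 alone took 0.316% of all listed counts.

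H19, Mest, Igf2 and Meg3 also hold microRNAs, which are short RNAs that guide silencing through their seed, bases 2 to 8. The mature sequences of those in H19 and Mest are shown because the counts below are those of the host transcripts and not of these products. They are from RefSeq on GRCm38.p6, 5′ to 3′, with the seed in capitals.
miR-675-5p (exonic in H19, chr7:142577112-142577133, minus strand): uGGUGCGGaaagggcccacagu
miR-675-3p (exonic in H19, chr7:142577078-142577099, minus strand): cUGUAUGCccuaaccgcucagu
miR-335-5p (intronic in Mest, chr6:30741314-30741336, plus strand): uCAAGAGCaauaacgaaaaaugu
miR-335-3p (intronic in Mest, chr6:30741354-30741375, plus strand): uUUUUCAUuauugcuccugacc

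Over all comparisons, edgeR's quasi-likelihood test with Benjamini-Hochberg adjustment over all 13459 tested genes called 5 of the 10 growth genes in a test for any difference over the 4 groups, against 41.0% of all tested genes. These were Igf2, H19, Cdkn1c, Peg3 and Plagl1. The call of Igf2 (edgeR adjusted p = 0.0402) was lost in 5 of 16 alternatives (adjusted p up to 0.122), with DESeq2 and without KO-labelled replicate 1 or 2, Het-labelled replicate 1 or SmoM2-labelled replicate 2. Between KO- and WT-labelled libraries 3 of 10 passed an adjusted p of 0.05, against 23.0% of tested genes. Cdkn1c rose, beside 11.6% of tested genes, and Peg3 and Plagl1 fell, beside 11.4%. In Het- against WT-labelled libraries 3 of 10 passed, against 25.3% of tested genes. Here Cdkn1c rose, beside 13.1% of tested genes, and H19 and Peg3 fell, beside 12.2%. In KO- against Het-labelled libraries 2 of 10 passed, against 9.43% of tested genes, with H19 higher, beside 4.33% of tested genes, and Peg3 lower, beside 5.1%, in the KO-labelled libraries. In SmoM2- against WT-labelled libraries 0 of 10 passed with edgeR, against 0.223% of tested genes. DESeq2 also called 0 of 10 there, and 1 of 10, Cdkn1c, had an unadjusted p under 0.05. Without Het-labelled replicate 1 fewer growth genes were called for any difference, in Het- against WT-labelled and in KO- against Het-labelled libraries. Het- against WT-labelled libraries gained calls of growth genes without KO-labelled replicate 1 or 2, a gain not set against all tested genes. KO- against Het-labelled libraries had fewer growth genes called without KO-labelled replicate 1 or 2 or Het-labelled replicate 2. Without Het-labelled replicate 1, fewer of all tested genes were called in the same comparisons too. In KO- against Het-labelled libraries this held without any single library of those groups, so the lost calls were not particular to the growth genes. With all libraries, shares of the growth genes called were close to the background, apart from KO- against Het-labelled libraries, where the count rests on 2 genes.

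The median log2 change of the 10 growth genes was -0.29 in KO- against WT-labelled libraries, beside 0.03 over all tested genes. It was -0.12 beside -0.02 in Het- against WT-labelled and 0.12 beside 0.00 in SmoM2- against WT-labelled libraries. The KO-, Het- and SmoM2-labelled comparisons share the WT-labelled libraries. A further comparison set the mean of the groups with a conditional allele, KO- and Het-labelled, against the mean of the groups without one, WT- and SmoM2-labelled. There 5 of 10 growth genes passed, against 43.5% of tested genes, with 1 higher, beside 22.0%, and 4 lower, beside 21.5%, and the median was -0.21 beside 0.01 over all genes. This comparison divides the libraries in the same way as sequencing depth and Smo level, so these cannot be told apart in it. Summed markers of some other cell types divided the libraries in that way too. The 8 immune markers summed, mostly through Cd74, to 81.2 to 104 CPM in KO-labelled and 113 to 138 CPM in Het-labelled libraries. They summed to 13.2 to 33.9 CPM in WT-labelled and to 10.2 to 10.6 CPM in SmoM2-labelled ones. Of the 5 immune markers tested, 1 was called in this comparison, higher, beside 43.5% of all tested genes. Their median change was 0.08, so the sum does not describe the list as a whole. Erythroid markers summed to 14.2 to 45.8 CPM with a conditional allele and to 3.0 to 7.98 CPM without one, and endothelial markers to 45 to 74.4 CPM and to 24.2 to 32.0 CPM. Ureteric bud and collecting duct markers, 4 of 10 of them tested, went the other way. They summed to 22.5 to 30.8 CPM with a conditional allele and to 34.3 to 66.7 CPM without one. The part of all these markers in the growth gene values was not tested.

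Whether libraries overlapped was read against the same background. The 4 libraries with a conditional allele did not overlap the 4 without one for 3 of 10 growth genes, Peg3, Plagl1 and Cdkn1c, against 33.1% of tested genes. Pairs of libraries did not overlap for 6 of 10 in KO- against WT-labelled libraries (62.0% of tested genes) and for 6 of 10 in Het- against WT-labelled libraries (66.9%). They did not overlap for 4 of 10 in SmoM2- against WT-labelled libraries (35.8%) and for 4 of 10 in KO- against Het-labelled libraries (56.9%). A separation of pairs was therefore as common among all genes as among the growth genes.

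**Figure D1:**
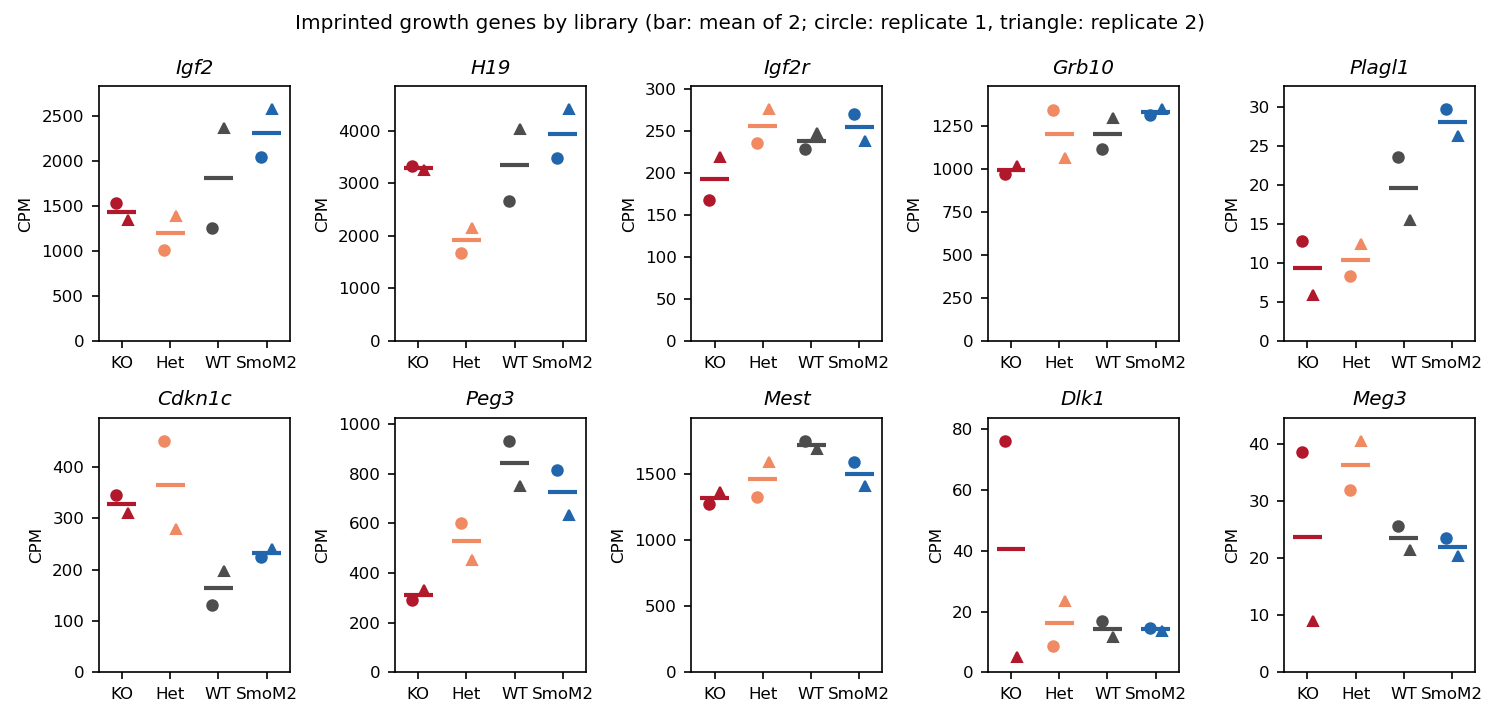
Level of each growth gene in CPM (vertical axis, from 0) in the 8 libraries by labelled group, with bars for the mean of 2 libraries, circles for replicate 1 and triangles for replicate 2. Peg3 and Plagl1 are lower, and Cdkn1c higher, in every KO- and Het-labelled library than in every WT- and SmoM2-labelled library, and Dlk1 is spread from 5.22 to 76.2 CPM within the KO-labelled group.

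**Figure D2:**
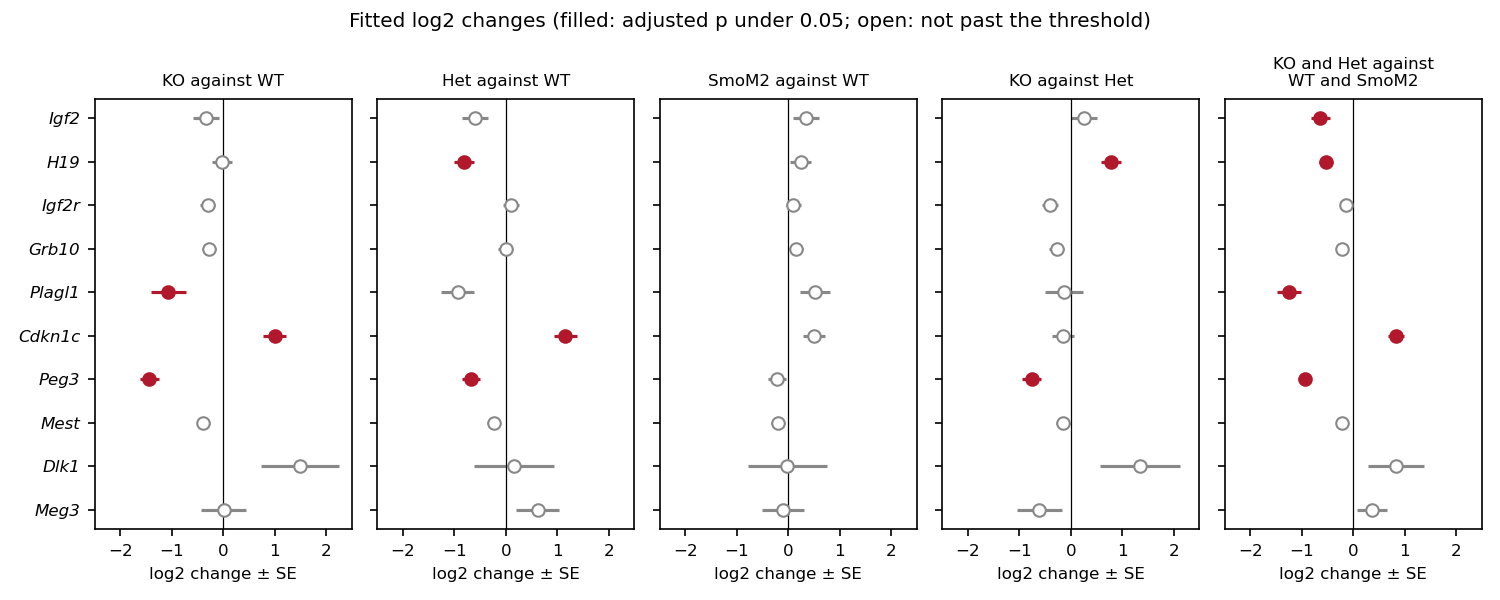
Fitted log2 change with its standard error for each growth gene (horizontal axis) in each comparison (panel), with filled points for an adjusted p under 0.05. No point is filled in the SmoM2- against WT-labelled panel.

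Igf2 encodes a secreted insulin-like growth factor of the fetus. It lies at chr7:142650766-142666816 (GRCm38, minus strand). Its level was 1526 and 1343 CPM in KO-labelled, 1012 and 1382 CPM in Het-labelled, 1255 and 2364 CPM in WT-labelled, and 2043 and 2571 CPM in SmoM2-labelled libraries. WT-labelled replicate 1 lay among the KO- and Het-labelled libraries, so the groups overlapped. Igf2 changed by -0.34 (log2, SE 0.25, adjusted p = 0.359) for KO- against WT-labelled and by -0.60 (SE 0.25, adjusted p = 0.104) for Het- against WT-labelled libraries by edgeR's test. In SmoM2- against WT-labelled libraries the change was 0.35 (SE 0.25, edgeR adjusted p = 0.868). None of these passed. Between the groups with a conditional allele and those without, Igf2 fell by 0.64 (SE 0.18, edgeR adjusted p = 0.0133), a call that was lost without KO-labelled replicate 2 (adjusted p = 0.0512).

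H19 is a noncoding RNA 72.6 kb from Igf2, at chr7:142575529-142578143 (GRCm38, minus strand). It stood at 3325 and 3261 CPM in KO-labelled and at 1673 and 2151 CPM in Het-labelled libraries. It stood at 2659 and 4036 CPM in WT-labelled and at 3484 and 4411 CPM in SmoM2-labelled libraries. Both Het-labelled libraries were below all 6 others, while the KO-labelled libraries lay within the WT-labelled range. H19 fell by 0.81 (log2, SE 0.20, edgeR adjusted p = 0.0132) for Het- against WT-labelled libraries and differed by -0.02 (SE 0.20, adjusted p = 0.942) for KO- against WT-labelled libraries. In the direct comparison it was higher by 0.78 (SE 0.20, edgeR adjusted p = 0.0329) in KO- than in Het-labelled libraries. The Het-labelled difference lost its call without Het-labelled replicate 1 (-0.67, adjusted p = 0.103) or WT-labelled replicate 2 (-0.50, adjusted p = 0.0714). The KO- against Het-labelled difference lost its call on leaving out any single library of those 2 groups (adjusted p from 0.0679 to 0.238).

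Igf2 and H19 both had their higher value in the female replicate 2 of the WT-labelled and of the SmoM2-labelled group. All KO-labelled libraries were male and all Het-labelled libraries female, and a fit with a term for sex gave other values for the KO- against Het-labelled difference. With it, the difference was 0.88 for Igf2 (edgeR adjusted p = 0.0459) and 1.26 for H19 (adjusted p = 0.00945). Igf2 then fell by 0.84 in Het- against WT-labelled libraries (edgeR adjusted p = 0.00811) and differed by 0.04 (adjusted p = 0.899) for KO- against WT-labelled libraries. In that fit the sex difference is estimated from the WT- and SmoM2-labelled groups alone, where it cannot be told apart from replicate number. The KO- and Het-labelled groups each held a single sex, so these values assume the same sex difference there.

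The ratio of H19 to Igf2, taken from RPKM, was 4.56 ± 0.35 (SD, n = 2) in KO-labelled, 3.18 ± 0.13 in Het-labelled, 3.79 ± 0.58 in WT-labelled and 3.39 ± 0.01 in SmoM2-labelled libraries. The mean log2 ratio differed by 0.09 between the libraries with a conditional allele and those without (two-sided exact permutation p = 0.686, with 0.0286 the smallest p that 4 against 4 libraries allow). However, the ratio was higher in both KO-labelled libraries, and lower in both Het-labelled libraries, than in all other libraries. The permutation treats KO- and Het-labelled libraries as alike and averages these opposite differences. It therefore cannot decide whether the ratio differed between the labelled groups. Over the 8 libraries the ratio ran from 3.1 to 4.8, a narrower range than that of either gene. Ins2, the insulin gene 11.8 kb from Igf2, had at most 1 count in any library.

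**Figure D3:**
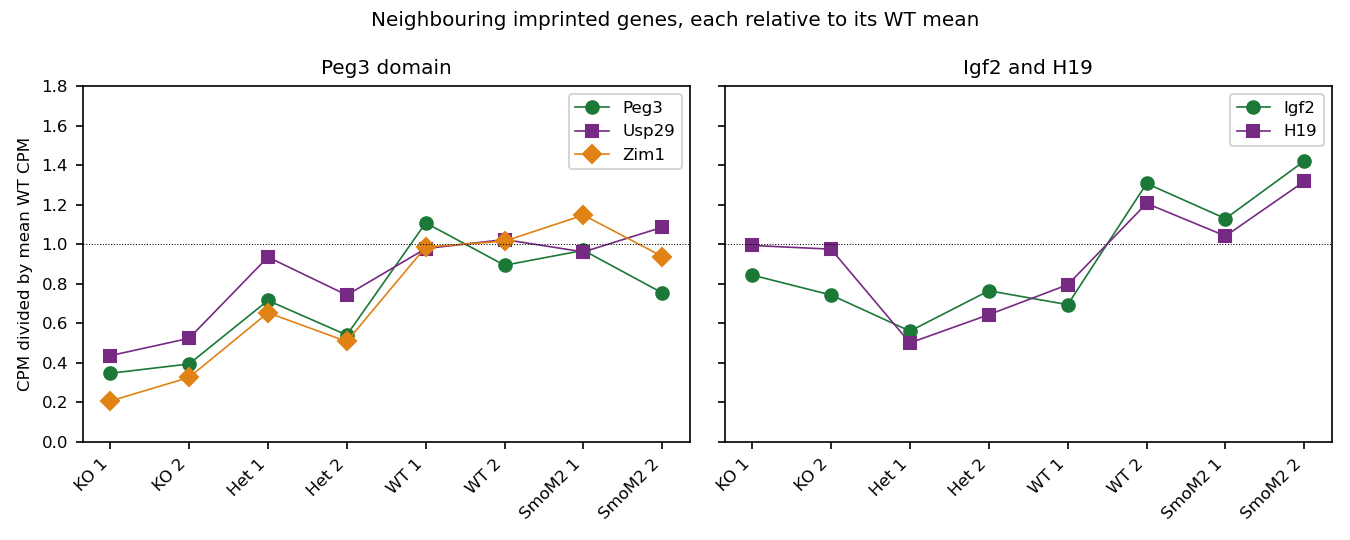
CPM of neighbouring imprinted genes in each library (horizontal axis), divided by the gene's WT-labelled mean (vertical axis), with a dotted line at 1. The Igf2 and H19 lines follow each other except in the KO-labelled libraries, where H19 is nearer to 1, and Peg3 lies below 1 in all 4 KO- and Het-labelled libraries together with its neighbour Zim1.

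Igf2r encodes the receptor that binds Igf2 and carries it to the lysosome, and Grb10 encodes an adaptor that restrains insulin and IGF receptor signalling. Igf2r, at chr17:12682406-12769664 (GRCm38, minus strand), was at 167 and 218 CPM in KO-labelled, 235 and 275 CPM in Het-labelled, 228 and 248 CPM in WT-labelled and 270 and 237 CPM in SmoM2-labelled libraries. The KO-labelled libraries were the lowest pair, but the change from WT-labelled libraries was -0.30 (log2, SE 0.15, edgeR adjusted p = 0.160) and took the other sign, 0.06, once trends in GC content and length were removed. Igf2r overlaps Airn, an antisense RNA, and because the strand setting of the counting is not given their reads cannot be separated. Airn stood at 3.32 to 5.48 CPM and was not called. Grb10, at chr11:11930508-12038683 (GRCm38, minus strand), was at 967 and 1015 CPM in KO-labelled, 1338 and 1062 CPM in Het-labelled, 1114 and 1294 CPM in WT-labelled and 1314 and 1346 CPM in SmoM2-labelled libraries. Here too the KO-labelled pair was lowest, with a change of -0.28 (SE 0.14, edgeR adjusted p = 0.169).

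Around these genes, 20 of 21 listed genes of the IGF axis were tested. In KO- against WT-labelled libraries 10 of 20 were called, beside 23.0% of all tested genes. Of these 2 rose, beside 11.6%, and 8 fell, beside 11.4%, and the list's median change was -0.38 beside 0.03 over all genes. Igf1r, the receptor through which Igf2 signals growth, stood at 182 and 175 CPM in KO-labelled, 323 and 339 CPM in Het-labelled, 381 and 469 CPM in WT-labelled and 494 and 414 CPM in SmoM2-labelled libraries. The KO-labelled pair was well below the rest. Igf1r fell by 1.25 (log2, SE 0.14, edgeR adjusted p = 0.000292) against WT-labelled and by 0.89 (SE 0.14, adjusted p = 0.00714) against Het-labelled libraries. The adaptor gene Grb14 fell by 2.09 (edgeR adjusted p = 0.00909) and Pappa, a protease that cleaves IGF binding proteins, fell by 1.54 (adjusted p = 0.0323) against WT-labelled libraries. The call of Pappa was lost after GC and length removal and without either KO-labelled library or WT-labelled replicate 1, and that of Grb14 without KO-labelled replicate 1. In Het- against WT-labelled libraries Grb14 fell by 2.14 (edgeR adjusted p = 0.00544) and Pappa by 1.24 (adjusted p = 0.0477). That Pappa call was lost in 10 alternatives. Neither gene was called between KO- and Het-labelled libraries, with changes of 0.05 for Grb14 and -0.30 for Pappa. Irs4, an insulin receptor substrate, had 0 counts in both KO-labelled libraries against 15 and 12 in the WT-labelled ones, too few for a fold.

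Grb7, a relative of Grb10, moved the other way within this axis. It rose by 2.96 (log2, SE 0.31, edgeR adjusted p = 0.000209), from 2.24 and 2.07 CPM in WT-labelled to 19 and 15 CPM in KO-labelled libraries. Igfbp6, an IGF binding protein with preference for Igf2, rose by 1.40 (SE 0.20, edgeR adjusted p = 0.00104) for KO- and by 0.76 (adjusted p = 0.0173) for Het- against WT-labelled libraries. It was also the single IGF axis gene called in SmoM2- against WT-labelled libraries, where it fell by 1.32 (SE 0.22, edgeR adjusted p = 0.0427), beside 0.223% of all tested genes. That call was lost in 6 of 17 alternatives (adjusted p up to 0.248), with only the groups compared and without either KO-labelled or SmoM2-labelled library or WT-labelled replicate 1. The Het-labelled call was lost in 4 of 17 (edgeR adjusted p up to 0.126), after GC and length removal and without either Het-labelled library or WT-labelled replicate 2, while the KO-labelled call was lost in 0 of 17. Its levels were 44.3 and 39.0 CPM in KO-labelled, 26.5 and 27.0 CPM in Het-labelled, 18 and 13 CPM in WT-labelled and 6.44 and 6.13 CPM in SmoM2-labelled libraries, with no overlap between any pair of groups. In Het- against WT-labelled libraries 5 of 20 IGF axis genes were called, beside 25.3% of all tested genes. Here 3 rose, beside 13.1%, and 2 fell, beside 12.2%. In KO- against Het-labelled libraries 6 of 20 were called, beside 9.43%, and 1 rose, beside 4.33%, and 5 fell, beside 5.1%.

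Plagl1, also known as Zac1, encodes a zinc finger transcription factor described as a regulator of other imprinted genes. It lies at chr10:13060504-13131694 (GRCm38, plus strand). Its level was low, at 12.8 and 5.88 CPM in KO-labelled, 8.29 and 12.4 CPM in Het-labelled, 23.7 and 15.5 CPM in WT-labelled and 29.8 and 26.3 CPM in SmoM2-labelled libraries. All 4 libraries with a conditional allele lay under all 4 without one, a separation found in the lower direction for 16.6% of tested genes. Plagl1 fell by 1.26 (log2, SE 0.23, edgeR adjusted p = 0.00141) in that comparison and kept its call under every alternative run. Against WT-labelled libraries alone it fell by 1.07 (SE 0.34, edgeR adjusted p = 0.0419) in KO-labelled libraries and differed by -0.94 (SE 0.32, adjusted p = 0.0530) in Het-labelled libraries. The Het-labelled difference passed the threshold in 8 of 17 alternatives, among them DESeq2 (adjusted p = 0.0330). The KO-labelled call was lost without KO-labelled replicate 2 (-0.62, adjusted p = 0.235), without WT-labelled replicate 1 (-0.73, adjusted p = 0.198), after removal of GC and length trends (-0.84, adjusted p = 0.124) and with totals implied by RPKM (adjusted p = 0.0528).

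Cdkn1c encodes p57, an inhibitor of cyclin-dependent kinases that restrains cell division, and lies at chr7:143458339-143461050 (GRCm38, minus strand), 791.5 kb from Igf2. It stood at 346 and 310 CPM in KO-labelled, 450 and 278 CPM in Het-labelled, 131 and 197 CPM in WT-labelled and 224 and 240 CPM in SmoM2-labelled libraries. Every library with a conditional allele was above every library without one, as for 16.5% of tested genes in the higher direction. Cdkn1c rose by 1.00 (log2, SE 0.22, edgeR adjusted p = 0.00968) for KO- and by 1.15 (SE 0.22, adjusted p = 0.00432) for Het- against WT-labelled libraries. It was the growth gene that rose in both. In SmoM2- against WT-labelled libraries both libraries were also higher, by 0.50 (SE 0.22), short of the threshold (edgeR adjusted p = 0.633).

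These Cdkn1c calls leaned on single libraries. The KO-labelled call was lost without KO-labelled replicate 1 (0.92, edgeR adjusted p = 0.0691), without WT-labelled replicate 1 (0.73, adjusted p = 0.0545) and after removal of GC and length trends (0.72, adjusted p = 0.0539). The Het-labelled call was lost without Het-labelled replicate 1 (0.73, edgeR adjusted p = 0.0508). The comparison of groups with and without a conditional allele gave 0.83 (SE 0.16, edgeR adjusted p = 0.00161) and was called under every alternative.

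Markers of cell types in which Cdkn1c is known were examined beside it. The defining podocyte gene Nphs1 had at most 3 counts in every library, and 8 podocyte markers summed to 55.7 to 76.2 CPM in KO-labelled, 55.7 to 64.4 CPM in Het-labelled, 59.5 to 63.9 CPM in WT-labelled and 67.0 to 71.3 CPM in SmoM2-labelled libraries. The podocyte sums overlapped between KO-, Het- and WT-labelled libraries, but single markers moved in both directions. Of 6 tested, 3 were called in KO- against WT-labelled libraries, 1 higher and 2 lower, beside 23.0% of all tested genes. In Het- against WT-labelled libraries 1 of 6 was called, lower, beside 25.3%. Between groups with and without a conditional allele 4 of 6 were called, 2 higher and 2 lower, beside 43.5%. Markers of differentiating nephrons, 14 genes, summed to 1440 to 1769 CPM in KO-labelled against 537 to 812, 529 to 732 and 496 to 673 CPM in Het-, WT- and SmoM2-labelled libraries. Of the 12 tested among them, 10 rose in KO- against WT-labelled libraries, beside 11.6% of all tested genes. In Het- against WT-labelled libraries 2 of 12 rose, beside 13.1%, which is close to that share. The part of these markers, and of the immediate early and stress genes given above, in the Cdkn1c level was not tested.

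Other cell cycle inhibitors of the same families were examined beside Cdkn1c. Of 6 listed CIP/KIP and INK4 genes 5 were tested, and in the groups with a conditional allele against those without 3 of 5 were called, beside 43.5% of all tested genes. Of these 0 rose, beside 22.0%, and 3 fell, beside 21.5%. Cdkn1a, which encodes p21, fell by 1.42 (log2, SE 0.28, edgeR adjusted p = 0.00221), and Cdkn1b, which encodes p27, fell by 0.31 (SE 0.11, adjusted p = 0.0389). Cdkn2b was called too, on at most 2 counts outside the SmoM2-labelled libraries, which had 13 and 11. The Cdkn1a call was lost in 0 of 16 alternatives, that of Cdkn1b in 6 of 16 (adjusted p up to 0.126) and that of Cdkn2b in 7 of 11 (adjusted p up to 0.0899). For Cdkn1b these were totals implied by RPKM, GC and length removal, and the fits without KO-labelled, Het-labelled or SmoM2-labelled replicate 1 or WT-labelled replicate 2. For Cdkn2b they were DESeq2, the replicate block, the sex term and the fits without any single KO- or Het-labelled library. Among KO- and WT-labelled libraries Cdkn2d alone passed, with a rise of 0.64 (edgeR adjusted p = 0.0369), while DESeq2 called Cdkn1a alone. In the imprinted domain of Cdkn1c, the noncoding RNA Kcnq1ot1 ranged from 7.62 to 21.9 CPM and was not called, and Phlda2, 40.5 kb away, had at most 2 counts in any library. Slc22a18, a transporter gene of the same domain, had 5 and 6 counts in KO-labelled, 17 and 5 in Het-labelled, 2 and 1 in WT-labelled and 5 and 4 in SmoM2-labelled libraries. On these few counts it was called higher for KO- against WT-labelled (edgeR adjusted p = 0.0362) and for Het- against WT-labelled libraries (adjusted p = 0.0119), with WT-labelled counts too few for a fold. The first call was lost in 8 of 14 alternatives (edgeR adjusted p up to 0.148), among them the fits without any single KO-, WT- or SmoM2-labelled library, and the second in 3 of 14 (adjusted p up to 0.182), without Het-labelled replicate 1 or either WT-labelled library.

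Peg3 encodes a large zinc finger protein linked to growth and maternal behaviour, and lies at chr7:6703892-6730431 (GRCm38, minus strand). It stood at 291 and 331 CPM in KO-labelled, 602 and 454 CPM in Het-labelled, 932 and 752 CPM in WT-labelled and 815 and 633 CPM in SmoM2-labelled libraries. Levels were lowest in the KO-labelled pair, intermediate in the Het-labelled pair and highest in the other groups, which overlapped each other. Peg3 fell by 1.44 (log2, SE 0.18, edgeR adjusted p = 0.000498) for KO- against WT-labelled libraries, to 0.370 of the WT-labelled mean, the largest fall among the growth genes there. It fell by 0.67 (SE 0.18, edgeR adjusted p = 0.0173) for Het- against WT-labelled libraries, and by 0.76 (SE 0.18, adjusted p = 0.0258) for KO- against Het-labelled libraries. In SmoM2- against WT-labelled libraries it differed by -0.22 (SE 0.18, adjusted p = 0.890).

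The fall of Peg3 in KO- against WT-labelled libraries was called under all alternatives run, with values from -1.62 to -1.12. Its smaller differences were less firm. In Het- against WT-labelled libraries the call was lost without Het-labelled replicate 2 (-0.50, edgeR adjusted p = 0.152), without WT-labelled replicate 1 (-0.51, adjusted p = 0.0868) and after removal of GC and length trends (-0.44, adjusted p = 0.0769). Between KO- and Het-labelled libraries it was lost after that removal (-0.67, edgeR adjusted p = 0.0564) and without KO-labelled replicate 1 (adjusted p = 0.126), KO-labelled replicate 2 (adjusted p = 0.0656) or Het-labelled replicate 1 (adjusted p = 0.207).

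Imprinted neighbours of Peg3 were lower in the same libraries. Zim1, a zinc finger gene 7.4 kb away, stood at 5.09 and 8.06 CPM in KO-labelled, 16.2 and 12.6 CPM in Het-labelled, 24.4 and 25.2 CPM in WT-labelled and 28.4 and 23.2 CPM in SmoM2-labelled libraries. As for Peg3, the KO-labelled pair was lowest and the Het-labelled pair lay between it and the other groups. Zim1 fell by 1.91 (log2, SE 0.25, edgeR adjusted p = 0.000677) for KO- and by 0.78 (SE 0.22, adjusted p = 0.0249) for Het- against WT-labelled libraries, and by 1.13 (SE 0.27, adjusted p = 0.0260) for KO- against Het-labelled libraries. The Het-labelled call was lost after GC and length removal and without Het-labelled replicate 2 or either WT-labelled library, and the KO- against Het-labelled call without KO-labelled or Het-labelled replicate 1. Usp29, which starts 147 bases from Peg3 and runs the other way, was sparse, at 1.99 and 2.39 CPM in KO-labelled, 4.28 and 3.40 CPM in Het-labelled, 4.47 and 4.68 CPM in WT-labelled and 4.40 and 4.97 CPM in SmoM2-labelled libraries. It fell by 0.67 (SE 0.25, edgeR adjusted p = 0.0472) between groups with and without a conditional allele, a call that 13 of 15 alternatives with a value lost.

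The promoter window of Peg3 is shown because it also holds the start of Usp29 and because it was the single window among the growth genes with a match to the Plagl1 motif searched, GGGGCCCC. The sequence is from RefSeq on GRCm38.p6, chr7:6730370-6730669 on the minus strand, from 250 bases before to 50 bases after the RefSeq start, with the motif in capitals.
Peg3 promoter: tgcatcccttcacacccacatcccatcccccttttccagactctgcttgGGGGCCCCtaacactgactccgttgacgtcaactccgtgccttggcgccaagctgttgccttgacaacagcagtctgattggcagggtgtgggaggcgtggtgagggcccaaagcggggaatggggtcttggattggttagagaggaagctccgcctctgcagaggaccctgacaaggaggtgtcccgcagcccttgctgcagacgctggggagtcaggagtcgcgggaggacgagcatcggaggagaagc
Counted from the first base shown, the motif begins at position 50, the Usp29 start lies at position 92 on the other strand, and the GENCODE start of Peg3 lies at position 239. The motif reads the same on both strands and was in 1 of the 8 growth genes with a RefSeq promoter entry, beside 1.25% of 27025 genes with an entry. A Gli motif, GACCACCCA or its reverse complement TGGGTGGTC, was in 0 of 8, beside 0.289% of genes. The Peg3 window holds 13 CpG dinucleotides and the Plagl1 window 26, beside a median of 7 over all 32851 promoter windows. These matches describe letters in a window and say nothing of binding.

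Mest, also known as Peg1, encodes an enzyme of the alpha/beta hydrolase fold linked to mesodermal growth, and lies at chr6:30723547-30748465 (GRCm38, plus strand). It was at 1276 and 1363 CPM in KO-labelled, 1331 and 1595 CPM in Het-labelled, 1756 and 1691 CPM in WT-labelled and 1595 and 1410 CPM in SmoM2-labelled libraries. WT-labelled libraries were the highest pair, and Mest had the narrowest range of the growth genes, 1.38-fold from lowest to highest library. It changed by -0.38 (log2, SE 0.13, edgeR adjusted p = 0.0561) for KO- against WT-labelled libraries, which missed the threshold, and passed it under 8 alternatives. Its overlapping neighbour Copg2, from which unstranded counting cannot separate it fully, stood at 394 to 532 CPM and was not called.

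Dlk1, a membrane protein related to Notch ligands, and the noncoding Meg3 lie 77.7 kb apart at chr12:109452823-109463336 and chr12:109541001-109571726 (GRCm38, plus strand). Dlk1 stood at 76.2 and 5.22 CPM in KO-labelled, 8.82 and 23.6 CPM in Het-labelled, 17.1 and 11.5 CPM in WT-labelled and 14.6 and 13.6 CPM in SmoM2-labelled libraries. The KO-labelled group thus held both the highest and the lowest library, 13.9-fold apart, a gap that 0.0446% of tested genes exceeded in that pair. Meg3 stood at 38.5 and 8.93 CPM in KO-labelled, 31.9 and 40.6 CPM in Het-labelled, 25.6 and 21.5 CPM in WT-labelled and 23.6 and 20.3 CPM in SmoM2-labelled libraries. It too was lowest in KO-labelled replicate 2 and 4.22-fold higher in KO-labelled replicate 1.

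No comparison called Dlk1 or Meg3. Dlk1 changed by 1.5 (log2, SE 0.76, edgeR adjusted p = 0.173) and Meg3 by 0.01 (SE 0.43, adjusted p = 0.993) for KO- against WT-labelled libraries. These values depended on which KO-labelled library was used. Without KO-labelled replicate 2 the Dlk1 change was 2.40 (edgeR adjusted p = 0.00606), and without KO-labelled replicate 1 it was -1.46 (adjusted p = 0.143). Meg3 was at -1.40 (edgeR adjusted p = 0.0167) without KO-labelled replicate 1. In Het- against WT-labelled libraries Meg3 differed by 0.62 (SE 0.41, adjusted p = 0.293), with both Het-labelled libraries above both WT-labelled ones. Rian, the next noncoding RNA of the domain, stood at 4.14 to 9.59 CPM and was not called.

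Some stromal genes were highest and lowest in the same libraries as Dlk1. Col1a1 stood at 380 and 32.9 CPM in KO-labelled libraries, 70.4 and 181 CPM in Het-labelled, 145 and 80.4 CPM in WT-labelled and 148 and 138 CPM in SmoM2-labelled libraries. Its order over the 8 libraries was that of Dlk1 except that WT-labelled replicate 1 and SmoM2-labelled replicate 1 changed places. Col3a1 was likewise highest in KO-labelled replicate 1, at 158 CPM, and lowest in KO-labelled replicate 2, at 17.6 CPM. Dcn, a stromal proteoglycan gene, was at 9.52 and 0.218 CPM in those libraries, also its highest and lowest. Col1a2, another collagen gene, was at 193 and 44.2 CPM in KO-labelled, 49.5 and 91.4 CPM in Het-labelled, 248 and 114 CPM in WT-labelled and 184 and 185 CPM in SmoM2-labelled libraries. It was thus lowest in KO-labelled replicate 2, but highest in WT-labelled replicate 1, as was the receptor gene Pdgfra. Foxd1, the stromal progenitor gene, did not take this order, at 12.8 and 3.70 CPM in KO-labelled, 22.5 and 14.6 CPM in Het-labelled, 197 and 171 CPM in WT-labelled and 385 and 301 CPM in SmoM2-labelled libraries. The 13 stromal markers together summed to 272 to 966 CPM in KO-labelled, 318 to 549 CPM in Het-labelled, 472 to 799 CPM in WT-labelled and 761 to 898 CPM in SmoM2-labelled libraries, and Ren1 had at most 2 counts in any library. Their part in the Dlk1 and Meg3 levels was not tested.

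**Figure D4:**
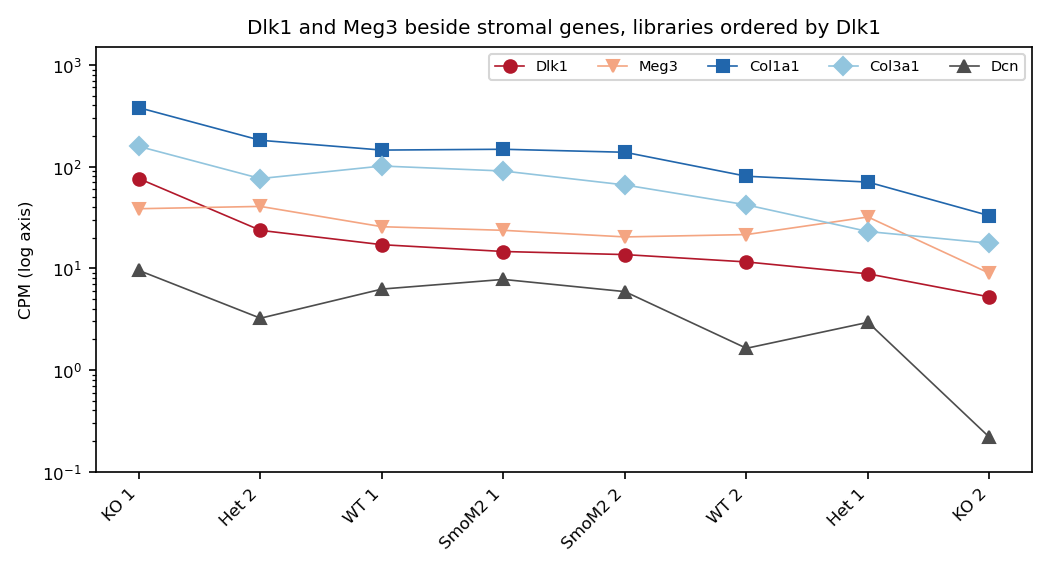
CPM (vertical log axis) of Dlk1, Meg3 and the stromal genes Col1a1, Col3a1 and Dcn in the 8 libraries, ordered from left to right by Dlk1. Col1a1 and Col3a1 are highest in the library with the most Dlk1 and lowest in the one with the least, both KO-labelled. Col1a2, Pdgfra and Foxd1, which were highest in other libraries, are not drawn.

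A wider list of 57 other imprinted genes, of which 40 were tested, gave the setting for these values. Between KO- and WT-labelled libraries 10 of 40 were called, beside 23.0% of all tested genes. Here 4 rose, beside 11.6%, and 6 fell, beside 11.4%. Het- against WT-labelled libraries gave 12 of 40, beside 25.3%, with 6 that rose, beside 13.1%, and 6 that fell, beside 12.2%. KO- against Het-labelled libraries gave 2 of 40, beside 9.43%, with 1 that rose, beside 4.33%, and 1 that fell, beside 5.1%. In SmoM2- against WT-labelled libraries 0 of 40 were called by edgeR, 1 had an unadjusted p under 0.05, and DESeq2 called 1, Sfmbt2. Between the groups with and without a conditional allele 8 rose, beside 22.0% of all tested genes, and 9 fell, beside 21.5%. The median was -0.03 beside 0.01 over all genes. The share called, 42.5%, was close to the 43.5% of all tested genes.

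Single genes of that list moved far more than the growth genes. Sfmbt2, a Polycomb-related gene needed in the placenta, stood at 1.33 and 0.653 CPM in KO-labelled, 3.21 and 1.53 CPM in Het-labelled, 26.4 and 24.1 CPM in WT-labelled and 56.9 and 42.2 CPM in SmoM2-labelled libraries. None of the groups overlapped. It fell by 4.65 (log2, SE 0.39, edgeR adjusted p = 7.17e-05) for KO- and by 3.36 (SE 0.31, adjusted p = 9.42e-05) for Het- against WT-labelled libraries. Its 0.653 CPM in KO-labelled replicate 2 is the level of 3 counts in that library, so the size of the KO-labelled fall is uncertain. Peg10, a retrotransposon-derived gene also needed in the placenta, stood at 17 and 20 CPM in KO-labelled, 2.94 and 9.51 CPM in Het-labelled, 2.80 and 2.18 CPM in WT-labelled and 1.64 and 1.85 CPM in SmoM2-labelled libraries. It rose by 2.90 (SE 0.45, edgeR adjusted p = 0.00155) for KO- against WT-labelled and by 1.62 (SE 0.42, adjusted p = 0.0358) for KO- against Het-labelled libraries. Its neighbour Sgce rose by 2.07 (SE 0.68, edgeR adjusted p = 0.0480) for KO- against WT-labelled libraries on 2 to 16 counts a library. The Sgce call was lost in 10 of 16 alternatives (adjusted p up to 0.279), among them DESeq2 and the fits without any single library but WT-labelled replicate 1. The KO- against Het-labelled call of Peg10 was lost in 5 of 17 (edgeR adjusted p up to 0.203), with a sex term, after GC and length removal and without either KO-labelled library or Het-labelled replicate 1.

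**Figure D5:**
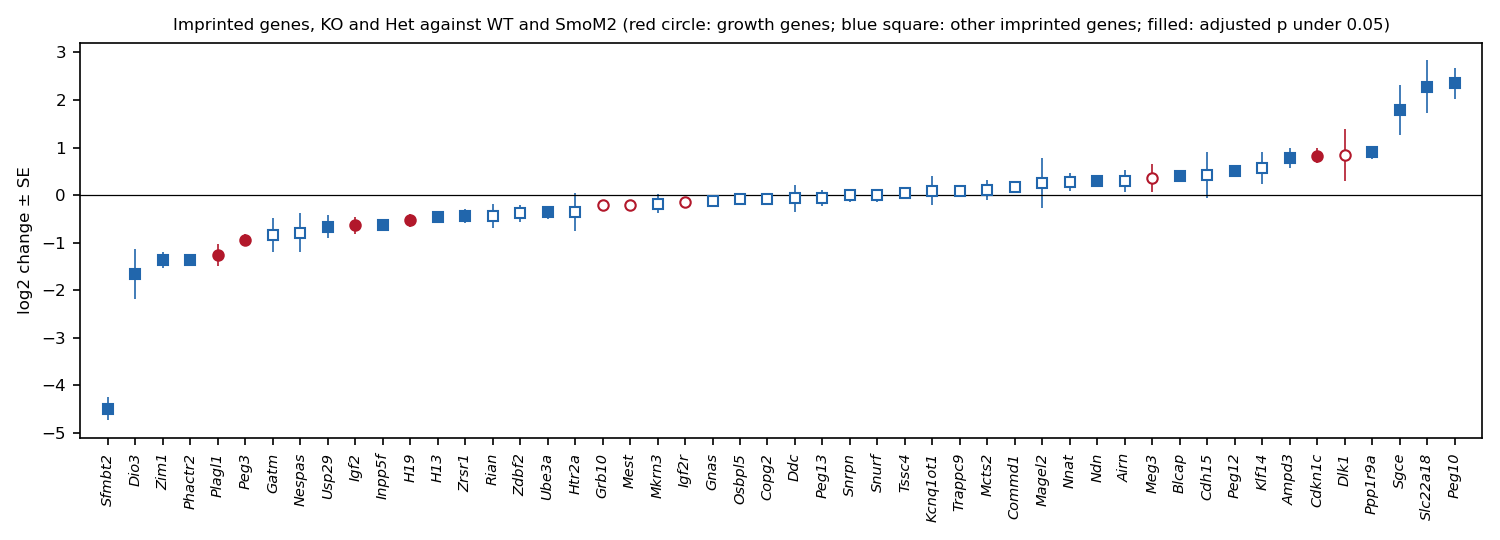
Fitted log2 change with its standard error (vertical axis) of the 10 growth genes (red circles) and the 40 other tested imprinted genes (blue squares) in KO- and Het-labelled against WT- and SmoM2-labelled libraries, sorted by value, with filled symbols for an adjusted p under 0.05. Sfmbt2 lies lowest, Peg10 highest, and the growth genes run from Plagl1 at -1.26 to Dlk1 at 0.84, which was not called.

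Genes that keep imprints in place or act on DNA methylation were examined through 16 listed genes, 14 of them tested. Between KO- and WT-labelled libraries 5 of 14 were called, beside 23.0% of all tested genes. Here 1 rose, beside 11.6%, and 4 fell, beside 11.4%. Tet2 and Tet3, listed for their action on methylated cytosine and not as keepers of imprints, were among the 4. Between Het- and WT-labelled libraries 5 of 14 were called, beside 25.3%, and 2 rose, beside 13.1%, and 3 fell, beside 12.2%. Tet2, which oxidises methylated cytosine, fell by 1.20 (log2, SE 0.13, edgeR adjusted p = 0.000253) for KO- and by 0.45 (SE 0.12, adjusted p = 0.0195) for Het- against WT-labelled libraries. Zfp445, a zinc finger protein that guards imprints, fell by 0.46 (SE 0.11, edgeR adjusted p = 0.0148) and by 0.49 (SE 0.11, adjusted p = 0.00992). Uhrf1, which directs maintenance methylation, rose by 0.57 (SE 0.19, edgeR adjusted p = 0.0467) and by 0.60 (SE 0.19, adjusted p = 0.0354). The Uhrf1 calls were lost in 10 of 17 alternatives for KO- against WT-labelled (edgeR adjusted p up to 0.264) and in 8 of 17 for Het- against WT-labelled libraries (adjusted p up to 0.207), each at its highest p without WT-labelled replicate 1. Every single library but WT-labelled replicate 2 ended the first when left out, and every Het- and SmoM2-labelled library and WT-labelled replicate 1 ended the second. The Het-labelled call of Tet2 was lost in 6 of 17 (edgeR adjusted p up to 0.383), with DESeq2, after GC and length removal and without any single Het- or WT-labelled library. Those of Zfp445 were lost after GC and length removal and without KO-labelled or Het-labelled replicate 2. Zfp57, another guard of imprints, differed by 0.55 (adjusted p = 0.0599) and 0.50 (adjusted p = 0.0716) and did not pass in either. After removal of GC and length trends 0 genes of this list rose and 1 fell in KO- against WT-labelled libraries. Fewer of all tested genes were called there too.

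Genes whose log2 CPM followed 3 of the growth genes most closely over the 8 libraries were also recorded, as a description over libraries that share their group and depth. Among 12299 genes compared, Slc25a1, a mitochondrial citrate carrier gene, was closest to Igf2 with a Pearson r of 0.980, followed by Morf4l1b at 0.971 and Scarb1 at 0.962. Closest to H19 were Csrp2 at 0.986, Ndufa10 at 0.984 and H1f0 at 0.973. Closest to Cdkn1c were Wscd1 at 0.973, Plekha1 at 0.953 and Arpin at 0.949. H1f0, a linker histone gene, stood at 778 and 780 CPM in KO-labelled, 526 and 546 CPM in Het-labelled, 688 and 872 CPM in WT-labelled and 774 and 1031 CPM in SmoM2-labelled libraries.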

How the data were processed

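RNA was measured in 8 libraries of sorted nephron progenitors, 2 in each of 4 labelled groups, and all were used. Per the labels' protocols polyadenylated RNA was selected. Per the file headers, the authors deposited raw read counts per gene symbol, RPKM values and a gene length. STAR, featureCounts and Subread are named with the build mm10 in the submitters' processing notes, with versions, annotation and strand setting not given in the sources used here. RPKM served only for levels between genes, for the ratio of H19 to Igf2 and for an alternative scaling.

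The deposited counts entered the quasi-likelihood test of edgeR 4.0.16 (R 4.3.3). The filterByExpr function left 13459 genes, TMM factors scaled the libraries, and a single quasi-likelihood fit to all 8 libraries had 4 residual degrees of freedom and a biological coefficient of variation of 13.5%. P-values were two-sided and adjusted by the Benjamini-Hochberg method over all tested genes, with a threshold of 0.05. Log2 CPM used a prior count of 2, and standard errors are those the test statistic implies. The alternatives were DESeq2 1.42.0, other scalings and filters, a replicate block, a sex term, removal of GC and length trends (GC known for 23876 genes), only the groups compared, and each library left out in turn. The fit was tested on simulated data. Positions are from GENCODE M21 on GRCm38, the build of mm10. RefSeq promoter entries matched 8 of 10 growth genes. Named were the growth genes, Smo, members of the related lists by size of change or shared locus, and the 3 closest genes by Pearson r. Cell type markers served as checks. The genes, lists and rules were chosen with earlier results of these data known. No molecular identifiers are mentioned in the labels, so counts may include PCR copies.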

Additional observations from a re-analysis of the deposited data

How the results depend on the processing

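Of 1000 values of the growth genes under the alternatives, 875 kept their direction and side of the threshold, 29 lost a call, 51 gained one and 45 changed sign. None of the changes of sign was in a difference called with all 8 libraries. Sign changes outside the leaving out of libraries were as follows, as log2 changes. In KO- against WT-labelled libraries a sex term gave Igf2 0.040 and H19 0.24, totals implied by RPKM gave H19 0.044, the replicate block gave H19 0.011, and GC and length removal gave Igf2r 0.061. Meg3 there was -0.019 with DESeq2, -0.021 with its size factors, -0.016 with every gene that had a count, -0.023 with only the groups compared, -0.031 with at least 10 counts in every library, -0.067 with the block and -0.10 with sex. Grb10 in Het- against WT-labelled libraries was 0.0044 with DESeq2, 0.0042 with its size factors and 0.12 after GC and length removal. Dlk1 in SmoM2- against WT-labelled libraries was 0.014 with the block, Cdkn1c in KO- against Het-labelled libraries was 0.19 with sex, and Igf2r between groups with and without a conditional allele was 0.12 after GC and length removal.

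Leaving out each library in turn gave ranges across zero. In KO- against WT-labelled libraries they were -0.73 to 0.16 for Igf2, -0.30 to 0.28 for H19, -1.46 to 2.40 for Dlk1 and -1.40 to 0.70 for Meg3. In Het- against WT-labelled libraries they were -0.033 to 0.18 for Igf2r, -0.72 to 0.69 for Dlk1 and -0.21 to 0.14 for Grb10. In SmoM2- against WT-labelled libraries they were -0.035 to 0.89 for Igf2, -0.031 to 0.58 for H19, -0.26 to 0.29 for Dlk1 and -0.21 to 0.037 for Meg3. In KO- against Het-labelled libraries they were -0.48 to 0.23 for Cdkn1c, -1.61 to 2.25 for Dlk1, -2.02 to 0.084 for Meg3 and -0.80 to 0.32 for Plagl1. Between groups with and without a conditional allele they were -0.64 to 1.29 for Dlk1 and -0.34 to 0.71 for Meg3.

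Counts of all called genes moved more. The 3100 of KO- against WT-labelled libraries became 2064 after GC and length removal and 1304 to 2924 on leaving out a library, and the 3403 of Het- against WT-labelled became 1401 to 3615. The 30 of SmoM2- against WT-labelled became 82 with DESeq2, 356 with every gene that had a count, 54 with the block, 54 with sex, 8 with only the groups compared and 8 to 81 without a library. The 1269 of KO- against Het-labelled became 2217 with every gene that had a count, 367 after GC and length removal and 36 to 1472 without a library. The 5515 of any difference became 3656 to 5510. The counts of called growth genes that follow have no share of all genes under the same alternative beside them. They are therefore not a result about these genes. With every gene that had a count, called growth genes numbered 6, 6, 1 and 5 in these 4 comparisons, 8 between groups with and without a conditional allele and 9 for any difference. They numbered 5 in Het- against WT-labelled with only the groups compared and 1 in KO- against Het-labelled after GC and length removal. Without a library they numbered 2 to 4, 1 to 5, 0 to 0 and 0 to 2 in the 4 comparisons, 5 to 6 with and without a conditional allele and 3 to 7 for any difference. Smo was called in SmoM2- against WT-labelled libraries (0.74, edgeR adjusted p = 0.132) in 4 alternatives, with DESeq2, with every gene that had a count and without Het-labelled replicate 1 or 2, all at 0.75, and ranged from 0.72 to 0.78 without a library. In KO- against Het-labelled (-0.65, edgeR adjusted p = 0.0907) it was called at -0.68 with DESeq2 and at -0.67 with every gene that had a count. The libraries whose absence moved a count of all genes by over 1.5 times were KO-labelled replicate 1 (1304) and both WT-labelled replicates (2038 and 1955) for KO- against WT-labelled, both Het-labelled replicates (1468 and 1401) and WT-labelled replicate 2 (2089) for Het- against WT-labelled, each KO-labelled (376 and 551) and Het-labelled (36 and 365) replicate for KO- against Het-labelled, and Het-labelled replicate 1 (3656) for any difference. For SmoM2- against WT-labelled they were both KO-labelled (9 and 9), both WT-labelled (8 and 81) and both SmoM2-labelled (8 and 10) replicates. The cause was not tested in any of these. Where a library was left out, the lone library of its group was assumed to vary like the others.

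The labels do not say that replicate numbers mark a shared litter, and deviations from group means correlated between same-numbered libraries at -0.06 to 0.39 over the 6 pairs of groups, so the numbers were not taken to pair the libraries. The 0.39 was for WT- with SmoM2-labelled libraries, the groups where replicate 1 was male and replicate 2 female. With a replicate block, Plagl1 was called in Het- against WT-labelled libraries (edgeR adjusted p = 0.0423), and no other call of a growth gene changed. Plagl1, Dlk1 and Meg3 had from 24 to 344 counts a library, which limits their precision.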
